A study of Mus musculus with 12 samples.

Results

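The 10 genes described here are the core of the circadian clock and its direct output: Arntl (also called Bmal1), Clock, Per1, Per2, Per3, Cry1, Cry2, Nr1d1, Nr1d2 and Dbp. They were taken by symbol from a deposited table of 54532 genes, each matched 1 row, and all 10 passed the filter on low values. Bulk RNA sequencing was done on the whole colon of 12 mice on a C57BL/6N background, aged 6 to 8 weeks, in 4 groups of 3 libraries. Tmem173fl/fl mice carry loxP sites in both copies of Tmem173, the gene of the innate immune adaptor STING, and no Cre. Tmem173iΔmye mice carry the same floxed gene and a tamoxifen-inducible Cre (CreERT2) under control of Lyz2, a gene of myeloid cells, so that the deletion is directed to a minority of the cells in a whole colon. Mice of all 4 groups, controls included, received 5 tamoxifen injections. Colitis was set off in 1 group of either genotype with dextran sulfate sodium (DSS), an agent that damages the lining of the colon, given to drink over 7 days, with 1 more day on plain water, and the untreated mice drank water throughout. The time of day at which the colons were taken is not given in the sources used here, and each mouse was sampled at a single time, so the data hold levels of clock transcripts and no rhythm.

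The clock is a transcriptional feedback loop that runs in nearly every mammalian cell. The proteins of Arntl and Clock form a heterodimer that binds E-box elements and activates the Per and Cry genes, whose proteins return to the nucleus and inhibit that heterodimer. The same heterodimer activates Nr1d1 and Nr1d2, nuclear receptors that repress Arntl through ROR response elements, and Dbp, a transcription factor that acts on D-box elements and carries the rhythm to output genes. In tissues with a running clock, Arntl therefore peaks at about the opposite time to Nr1d1, Nr1d2, Dbp and Per3, and the colon is known to hold such a clock in its epithelium and its muscle layer.

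These elements can be read in the promoters of some members. RefSeq start sites on GRCm38.p6 were available for 9 of the 10 genes, in 13 windows that run from 250 bases before to 50 bases after a start, and Per2 was not among them. The 4 windows shown are those that hold one of the 3 motifs searched, on either strand, and capitals mark the motif. The first is the Arntl window chr7:113207261-113207560 (plus strand), with the ROR response element, AGGTCA preceded by AANT, at position 27 from the start. The Cry1 window chr10:85185005-85185304 (minus strand) has the E-box CACGTG at position -60, and the Per1 window chr11:69098699-69098998 (plus strand) has it at position -166. The Per3 window chr4:151044616-151044915 (minus strand) holds the D-box TTATGTAA at positions -205 and -158.
Arntl: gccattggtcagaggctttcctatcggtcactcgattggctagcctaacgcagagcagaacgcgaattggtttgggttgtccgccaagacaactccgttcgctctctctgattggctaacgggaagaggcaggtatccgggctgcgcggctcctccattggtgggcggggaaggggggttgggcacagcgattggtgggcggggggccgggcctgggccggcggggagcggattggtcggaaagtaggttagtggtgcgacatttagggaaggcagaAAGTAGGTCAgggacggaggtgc
Cry1: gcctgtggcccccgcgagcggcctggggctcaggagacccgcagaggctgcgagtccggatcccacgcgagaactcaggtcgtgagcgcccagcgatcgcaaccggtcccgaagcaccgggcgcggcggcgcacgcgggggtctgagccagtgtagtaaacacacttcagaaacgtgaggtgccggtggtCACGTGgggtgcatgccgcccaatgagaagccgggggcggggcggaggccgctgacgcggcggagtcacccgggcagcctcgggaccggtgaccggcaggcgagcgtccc
Per1: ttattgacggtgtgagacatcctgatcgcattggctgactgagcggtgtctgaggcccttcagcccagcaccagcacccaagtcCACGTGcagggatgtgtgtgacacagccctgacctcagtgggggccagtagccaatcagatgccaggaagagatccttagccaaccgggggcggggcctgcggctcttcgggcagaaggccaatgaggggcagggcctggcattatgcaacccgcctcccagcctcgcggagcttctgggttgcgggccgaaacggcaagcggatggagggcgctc
Per3: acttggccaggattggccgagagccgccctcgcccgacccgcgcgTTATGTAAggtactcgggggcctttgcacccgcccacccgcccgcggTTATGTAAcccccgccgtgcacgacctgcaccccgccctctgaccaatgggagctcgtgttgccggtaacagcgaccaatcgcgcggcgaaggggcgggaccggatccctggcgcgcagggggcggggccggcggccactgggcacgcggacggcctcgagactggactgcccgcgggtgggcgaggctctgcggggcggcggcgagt
The motifs were also counted in 32851 RefSeq promoter windows of the same length, which leave out a whole chromosome. Of these, 7.15% hold CACGTG, 1.06% hold TTATGTAA or TTACGTAA and 0.219% hold AGGTCA preceded by AANT. The E-box reads the same on both strands, and none of the 3 motifs overlapped another in these windows. A match describes the letters in this window only. Per1 and Cry1 both hold the E-box, and with DSS in Tmem173fl/fl mice Per1 rose by 2.16 log2 units while Cry1 fell by 1.23.

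Totals ran from 13823237 to 18718915 counts per library. Tmem173 itself was at 14.4 to 24.5 CPM (counts scaled to a common library total) in the 6 untreated libraries, at 37.7 to 44.0 CPM in colitic Tmem173fl/fl libraries and at 23.8 to 47.8 CPM in colitic Tmem173iΔmye libraries. Its difference between the genotypes in colitic mice did not pass (log2 fold change -0.28, SE 0.26, edgeR adjusted p = 0.602), so the deletion was not called in total colon RNA. Colitic Tmem173iΔmye replicates 2 and 5 (23.8 and 31.1 CPM) lay below all colitic Tmem173fl/fl libraries, and replicate 1 (47.8 CPM) lay above them. On the first principal component, with 56% of the variance, the colitic Tmem173fl/fl libraries lay from 81.1 to 101.5 and the untreated libraries from -61.5 to -41.8, while colitic Tmem173iΔmye replicates 1, 2 and 5 lay at 53.4, 11.6 and -22.9. Replicate 5 also stood apart on the second component (-78.6, against -15.7 to 20.5 for the other libraries). It and replicate 3 of both untreated groups had Xist RNA at 1225 to 1839 CPM and no Y-linked counts, so mice of both sexes are present. No colitic Tmem173fl/fl library had this pattern.

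DSS moved most of the clock genes in Tmem173fl/fl mice. The activators Arntl and Clock were lower, the receptors Nr1d1 and Nr1d2 and the output gene Dbp were higher, and the Per and Cry genes were split. Of the 10 genes, 5 were higher (Nr1d1, Per1, Nr1d2, Dbp and Cry2) and 4 were lower (Cry1, Arntl, Per2 and Clock) in colitic than in untreated Tmem173fl/fl mice, at an adjusted p under 0.05 in edgeR's quasi-likelihood test. Per3 did not pass. Over all 24102 genes tested, 35.4% were called in this comparison, 19.5% as higher and 16.0% as lower. The median log2 fold change of the 10 genes was 0.36, against 0.03 over all genes tested. In Tmem173iΔmye mice the same DSS comparison called 0 of the 10 (2.17% of all genes), and 4 of the 10 (Per1, Per2, Cry1 and Nr1d1) had an unadjusted p under 0.05, against 15.6% of all genes. That count of 0 depended on the test, since DESeq2 and a fit of all 12 libraries each called Per1, Cry1 and Nr1d1, and the number of genes called ran from 51 to 1743 when single libraries were left out. The comparison of colitic Tmem173iΔmye with colitic Tmem173fl/fl mice called 2 of the 10, 1 higher and 1 lower in Tmem173iΔmye (3.11% of all genes, 0.954% higher and 2.15% lower). Both calls were lost with limma and with a replicate block. Leaving out single libraries gave 0 to 2 called members and 27 to 2002 called genes. The interaction of genotype and DSS called 0 of the 10 (2.65% of all genes). In the interaction 7 of the 10 had an unadjusted p under 0.05, against 18.1% of all genes, and DESeq2 called 3 (Arntl, Per1 and Cry2). The colitic genotype comparison and the interaction share libraries with each other and with both DSS comparisons and are not independent of them. In bulk RNA, fewer cells of a type and less clock RNA per cell cannot be told apart. The p-values measure the spread between mice that were sampled once.

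**Figure D1:**
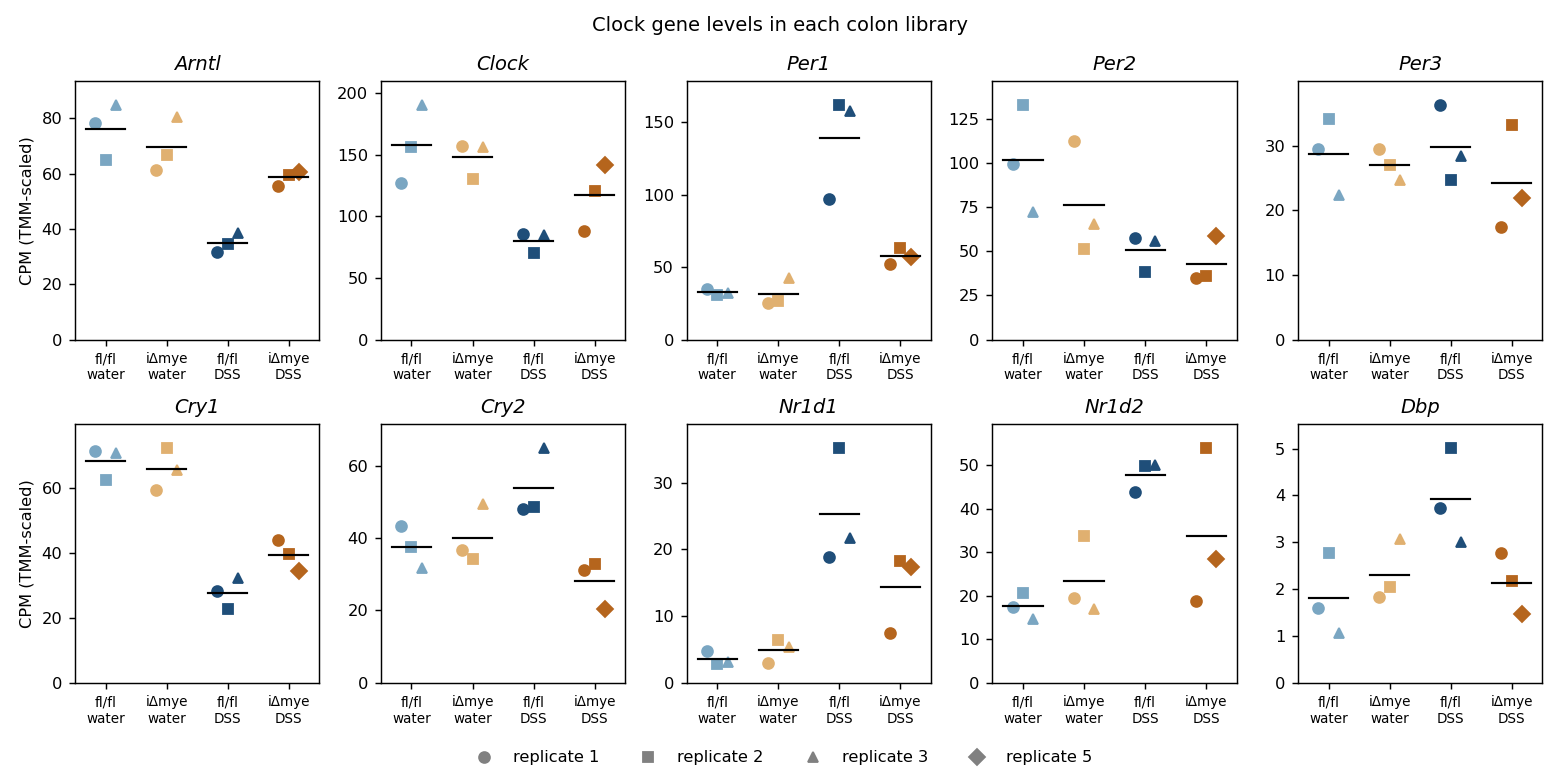
Level of each of the 10 clock genes in each of the 12 libraries, in CPM on a linear axis from 0 for each gene, with the 3 libraries of each group as points and the group mean as a line. For Arntl the colitic Tmem173fl/fl libraries sit between 31.6 and 38.7 CPM, below the other 9 libraries, and for Per1 they sit between 97.0 and 162.1 CPM, above the other 9.

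The gene positions below are those of the deposited table on GRCm38, and all 10 genes are protein-coding. Arntl (ENSMUSG00000055116, chromosome 7, 113207465 to 113314126, plus strand), the activator without which the loop stops, was at 78.2, 64.8 and 85.0 CPM in untreated Tmem173fl/fl libraries 1, 2 and 3 and at 31.6, 34.4 and 38.7 CPM in the colitic ones. It was at 61.5, 66.7 and 80.5 CPM in untreated Tmem173iΔmye libraries and at 55.6, 59.7 and 60.7 CPM in colitic replicates 1, 2 and 5. The colitic Tmem173fl/fl libraries were thus the 3 lowest of the 12, with no overlap with any other group, and the colitic Tmem173iΔmye libraries lay just under the lowest untreated library of their own genotype. Arntl fell by 1.06 on the log2 scale (SE 0.15) with DSS in Tmem173fl/fl mice (edgeR adjusted p = 0.000438). In Tmem173iΔmye mice its log2 fold change with DSS was -0.25 (SE 0.18, adjusted p = 0.57). Between colitic mice Arntl was higher in Tmem173iΔmye by 0.74 log2 units (SE 0.16, adjusted p = 0.0475), a call that was kept without colitic Tmem173iΔmye replicate 1 and lost when any other of the 6 libraries was left out (adjusted p from 0.0366 to 0.247). The difference between the 2 DSS effects was 0.88 log2 units (SE 0.22), just outside the threshold (adjusted p = 0.0504).

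Clock (ENSMUSG00000029238, chromosome 5, 76209868 to 76304792, minus strand), the constitutive partner of Arntl, was at 127.4, 156.0 and 190.7 CPM in untreated Tmem173fl/fl libraries and at 85.9, 70.2 and 84.6 CPM in the colitic ones. In Tmem173iΔmye mice it was at 157.4, 130.2 and 156.3 CPM untreated and at 88.3, 120.7 and 141.7 CPM with DSS. Colitic replicate 1 of Tmem173iΔmye was close to the colitic Tmem173fl/fl libraries, and replicate 5 lay among the untreated ones. Clock fell by 0.91 log2 units (SE 0.17) with DSS in Tmem173fl/fl mice (edgeR adjusted p = 0.00249), and its change in Tmem173iΔmye mice was -0.34 (SE 0.22, adjusted p = 0.503).

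Nr1d1 (ENSMUSG00000020889, chromosome 11, 98767932 to 98775333, minus strand), the nuclear receptor REV-ERBα, had the largest change with DSS of the 10. It was at 4.77, 2.78 and 3.07 CPM in untreated Tmem173fl/fl libraries and at 18.9, 35.2 and 21.7 CPM in the colitic ones. In Tmem173iΔmye mice it was at 2.97, 6.41 and 5.29 CPM untreated and at 7.48, 18.3 and 17.3 CPM with DSS. The lowest colitic library was thus above the highest untreated library in both genotypes, and colitic Tmem173iΔmye replicate 1 was the lowest of the 6 colitic libraries. Nr1d1 rose by 2.91 log2 units (SE 0.31, 7.53-fold) in Tmem173fl/fl mice (edgeR adjusted p = 6.89e-05). In Tmem173iΔmye mice its log2 fold change was 1.55 (SE 0.41, adjusted p = 0.0906), which passed the threshold when replicate 1 of the colitic group was left out (1.86, adjusted p = 0.0400). The 2 DSS effects on Nr1d1 were not shown to differ (interaction -1.29, SE 0.54, adjusted p = 0.227). Of the Nr1d1 exons, 263 bases (8.55%) overlap the antisense gene Thra, and the strand setting of the counting is not given in the sources used here, so reads from that stretch cannot be told apart without strand. Thra was at 37.9 ± 2.52 CPM in untreated and 67.8 ± 9.53 CPM (SD, n = 3) in colitic Tmem173fl/fl mice.

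Nr1d2 (ENSMUSG00000021775, chromosome 14, 18204054 to 18239127, minus strand), or REV-ERBβ, the second repressor of Arntl, was at 17.4, 20.6 and 14.7 CPM in untreated Tmem173fl/fl libraries and at 43.8, 49.7 and 50.05 CPM with DSS. It rose by 1.52 log2 units (SE 0.16, edgeR adjusted p = 6.85e-05). In Tmem173iΔmye mice it was at 19.5, 33.8 and 17.01 CPM untreated and at 18.7, 54.0 and 28.5 CPM with DSS. These last 3 libraries were the most spread of any group for this gene, with replicate 1 at the untreated level and replicate 2 above every colitic Tmem173fl/fl library. The change in Tmem173iΔmye mice was 0.52 (SE 0.38, adjusted p = 0.574) and ran from 0.02 to 0.88 when single libraries were left out.

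The 3 Period genes, whose proteins inhibit the Arntl and Clock heterodimer, went 3 ways with DSS in Tmem173fl/fl mice. Per1 (ENSMUSG00000020893, chromosome 11, 69095217 to 69109960, plus strand) was at 35.0, 30.7 and 32.2 CPM in untreated and at 97.0, 162.1 and 157.4 CPM in colitic Tmem173fl/fl libraries. It was at 25.0, 26.8 and 42.7 CPM in untreated and at 52.2, 63.2 and 56.6 CPM in colitic Tmem173iΔmye libraries. The colitic groups overlapped neither each other nor the untreated ones. Per1 rose by 2.16 log2 units (SE 0.20, 4.46-fold) with DSS in Tmem173fl/fl mice (edgeR adjusted p = 3.3e-05). In Tmem173iΔmye mice its log2 fold change was 0.86 (SE 0.24, adjusted p = 0.108), and without the libraries of female pattern it was 1.18 (adjusted p = 0.0306). Between colitic mice Per1 was lower in Tmem173iΔmye by 2.44-fold (log2 fold change -1.29, SE 0.22, adjusted p = 0.0274). That call was kept only without colitic Tmem173iΔmye replicate 1 among the 6 single libraries left out, with adjusted p from 0.0388 to 0.0877. The difference between the DSS effects was -1.23 (SE 0.32, adjusted p = 0.0573).

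Per2 (ENSMUSG00000055866, chromosome 1, 91415982 to 91459324, minus strand) was at 99.9, 133.4 and 72.4 CPM in untreated and at 57.8, 38.5 and 56.0 CPM in colitic Tmem173fl/fl libraries. In Tmem173iΔmye mice it was at 112.8, 51.3 and 65.7 CPM untreated and at 34.8, 36.2 and 58.5 CPM with DSS. The untreated libraries of both genotypes were spread widely, and only in Tmem173fl/fl mice did the DSS groups not overlap. Per2 fell by 0.93 log2 units (SE 0.22, edgeR adjusted p = 0.00911) in Tmem173fl/fl mice, so it moved with Arntl and against Per1. In Tmem173iΔmye mice its log2 fold change was -0.83 (SE 0.31, edgeR adjusted p = 0.228). This value ran from -1.08 to -0.44 when single libraries were left out. Among those fits it passed only without colitic replicate 5 (-1.08, adjusted p = 0.0487). Per3 (ENSMUSG00000028957, chromosome 4, 151003652 to 151044665, minus strand) was at 29.5, 34.1 and 22.4 CPM in untreated and at 36.4, 24.7 and 28.4 CPM in colitic Tmem173fl/fl libraries, and at 17.5 to 33.2 CPM in the 6 Tmem173iΔmye libraries. All 4 groups of Per3 overlapped. Its log2 fold change with DSS was 0.13 (SE 0.20, adjusted p = 0.65) in Tmem173fl/fl and -0.17 (SE 0.26, adjusted p = 0.811) in Tmem173iΔmye mice.

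The Cryptochromes, the partners of the Period proteins in repression, moved in opposite directions with DSS in Tmem173fl/fl mice. Cry1 (ENSMUSG00000020038, chromosome 10, 85131700 to 85185064, minus strand) was at 71.6, 62.6 and 71.0 CPM in untreated and at 28.4, 22.8 and 32.2 CPM in colitic Tmem173fl/fl libraries. It was at 59.4, 72.6 and 65.8 CPM in untreated and at 44.0, 39.8 and 34.5 CPM in colitic Tmem173iΔmye libraries. The 4 groups fell into 3 levels, with the untreated libraries highest, the colitic Tmem173iΔmye libraries next and the colitic Tmem173fl/fl libraries lowest, without overlap between levels. Cry1 fell by 1.23 log2 units (SE 0.16, edgeR adjusted p = 0.000212) in Tmem173fl/fl mice. Its log2 fold change in Tmem173iΔmye mice was -0.74 (SE 0.19, adjusted p = 0.0803), which passed with DESeq2 (adjusted p = 0.0207) and in a fit of all 12 libraries (adjusted p = 0.0174). Neither the colitic genotypes (0.50, adjusted p = 0.21) nor the interaction (0.56, adjusted p = 0.218) passed.

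Cry2 (ENSMUSG00000068742, chromosome 2, 92403646 to 92434043, minus strand) was at 43.3, 37.5 and 31.6 CPM in untreated and at 48.1, 48.7 and 65.0 CPM in colitic Tmem173fl/fl libraries, and it rose by 0.59 log2 units (SE 0.17, adjusted p = 0.0200 in edgeR's test). This call was lost without untreated library 2 or 3 or colitic library 3 (adjusted p = 0.0572, 0.0718 and 0.0831). In Tmem173iΔmye mice Cry2 was at 36.6, 34.4 and 49.4 CPM untreated and at 31.1, 32.9 and 20.5 CPM with DSS. It was the only one of the 10 with groups that separated in opposite directions in the 2 genotypes, above the untreated libraries in one and below them in the other. The log2 fold change in Tmem173iΔmye mice was -0.51 (SE 0.24, adjusted p = 0.346), and the difference between the genotypes' DSS effects was -1.04 (SE 0.30, adjusted p = 0.0881). Of the Cry2 exons, 295 bases (4.67%) overlap the antisense gene D930015M05Rik, which had 15 to 35 counts per library.

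Dbp (ENSMUSG00000059824, chromosome 7, 45705088 to 45710203, plus strand), the output factor, was the lowest of the 10 genes and rested on 17 to 106 counts per library. It was at 1.59, 2.78 and 1.06 CPM in untreated and at 3.74, 5.02 and 2.996 CPM in colitic Tmem173fl/fl libraries. In Tmem173iΔmye mice it was at 1.82, 2.04 and 3.07 CPM untreated and at 2.78, 2.18 and 1.46 CPM with DSS, groups that overlapped throughout. Dbp rose by 1.19 log2 units (SE 0.39, edgeR adjusted p = 0.0375) in Tmem173fl/fl mice. The call was lost without untreated library 1 or 3 or colitic library 1 or 2 (adjusted p = 0.0972, 0.112, 0.0807 and 0.132). The change in Tmem173iΔmye mice was -0.12 (SE 0.42, adjusted p = 0.93). Dbp shares 539 exon bases (18.01%) with the antisense gene Sphk2. Reads from that stretch cannot be told apart without the strand setting, which is not given. Sphk2 was at 65.9 ± 10.8 CPM in untreated and 53.2 ± 2.11 CPM (SD, n = 3) in colitic Tmem173fl/fl mice. The effect of the overlap with Sphk2 on the Dbp values, in either direction, was not tested.

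**Figure D2:**
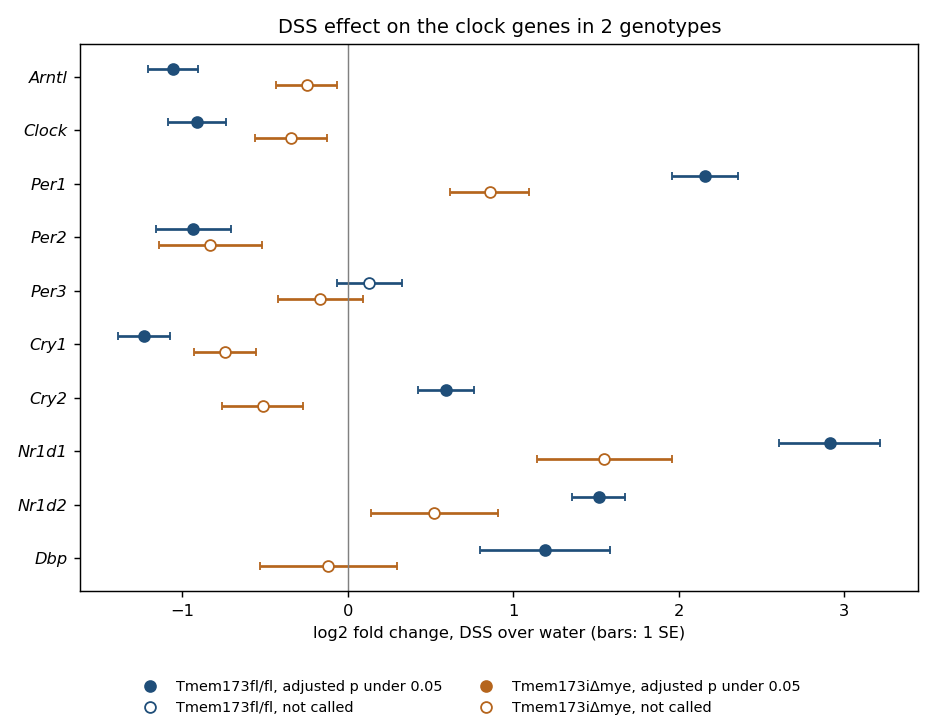
Log2 fold change with DSS of each of the 10 clock genes in Tmem173fl/fl and in Tmem173iΔmye mice, with bars of 1 SE from edgeR and filled points for an adjusted p under 0.05. Nr1d1 reaches 2.91 and 1.55 and Per1 2.16 and 0.86, while Arntl (-1.06 and -0.25) and Cry1 (-1.23 and -0.74) lie below 0.

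On a scale per gene length (FPKM), the order of the clock genes changed with DSS. In untreated Tmem173fl/fl mice the highest levels were those of Cry1 (19.96 ± 1.48 FPKM, SD, n = 3) and Per2 (16.9 ± 5.04 FPKM), followed by Clock (11.2 ± 2.31 FPKM) and Arntl (9.85 ± 1.35 FPKM). Cry1 and Per2 did not differ beyond their spread, nor did Clock and Arntl. Below them came Cry2 (5.78 ± 0.877 FPKM) and Per1 (5.65 ± 0.363 FPKM), which were level, then Nr1d2 (3.17 ± 0.532 FPKM) and Per3 (2.90 ± 0.592 FPKM), also level, and then Nr1d1 (1.121 ± 0.338 FPKM) and Dbp (0.589 ± 0.284 FPKM). In colitic Tmem173fl/fl mice Per1 was first at 24.9 ± 6.51 FPKM. The next 5 genes, Nr1d2, Per2, Cry2, Cry1 and Nr1d1, had mean levels from 8.94 to 8.30 FPKM and were not separated by their spread. Arntl (4.69 ± 0.496 FPKM) fell to eighth place. In colitic Tmem173iΔmye mice Cry1 stayed first (11.7 ± 1.55 FPKM), level with Per1 (10.04 ± 0.928 FPKM), and Arntl was at 7.69 ± 0.274 FPKM.

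In untreated mice none of the 10 genes was called between the genotypes, and the libraries of both genotypes overlapped for each of them. Over all genes 0 were called by edgeR at an adjusted p under 0.05 (0% of 24102), against 6 by DESeq2 and 3 by limma on log2(FPKM + 0.1). In edgeR 720 genes had an unadjusted p under 0.05. The largest log2 differences of Tmem173iΔmye from Tmem173fl/fl mice were 0.48 (SE 0.34) for Nr1d1, 0.42 (SE 0.24) for Nr1d2 and -0.40 (SE 0.27) for Per2. With single libraries left out these ran from 0.24 to 0.75, from 0.067 to 0.61 and from -0.79 to -0.16. Dbp then ran from 0.084 to 0.81, so this order depended on single libraries. In colitic mice the members called were Arntl (higher in Tmem173iΔmye) and Per1 (lower). Another 4 had an unadjusted p under 0.05 (with the 2 called, 6 of 10, against 20.2% of all genes), of which Clock and Cry1 were higher in Tmem173iΔmye (0.53 and 0.50) and Cry2 and Dbp lower (-0.95 and -0.89). The colitic genotypes did not overlap for 7 of the 10 genes, against 26.8% of all genes tested, and the untreated genotypes for 0 of 10, against 7.35%. With DSS in Tmem173fl/fl mice the groups did not overlap for 9 of 10 (49.3% of all genes), and in Tmem173iΔmye mice for 5 of 10 (21.5%).

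Whether the libraries might stand at different positions of the cycle was described by a single value per library, the log2 CPM of Arntl minus the mean log2 CPM of Nr1d1, Nr1d2, Dbp and Per3. Because a clock stopped or damped, a clock at another time and a different mix of cells can all move this value, they cannot be told apart with 1 harvest per mouse, and no test was made. The value was 3.16, 2.79 and 3.69 in untreated Tmem173fl/fl libraries and 2.89, 2.57 and 3.05 in untreated Tmem173iΔmye libraries. In colitic Tmem173fl/fl libraries it was 0.75, 0.64 and 1.09, and in colitic Tmem173iΔmye replicates 1, 2 and 5 it was 2.52, 1.79 and 2.32. The 6 untreated libraries lay together, the colitic Tmem173fl/fl libraries were the 3 lowest of the 12, and the colitic Tmem173iΔmye libraries lay between. The group means were 3.22 ± 0.45, 2.84 ± 0.25, 0.83 ± 0.24 and 2.21 ± 0.38 (SD, n = 3). The place and the order of the colitic Tmem173iΔmye libraries depended on the opposite member. With Nr1d1 alone replicates 1, 2 and 5 were at 2.81, 1.68 and 1.78, between the colitic Tmem173fl/fl libraries (-0.03 to 0.82) and the untreated ones (3.28 to 4.58). With Dbp alone they were at 4.10, 4.49 and 4.97, overlapping the untreated libraries (4.32 to 5.77), and replicate 1 was the lowest instead of the highest of the 3. Per3 is averaged into the value but did not pass with DSS in Tmem173fl/fl mice, and Per2, which is not in it, fell.

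**Figure D3:**
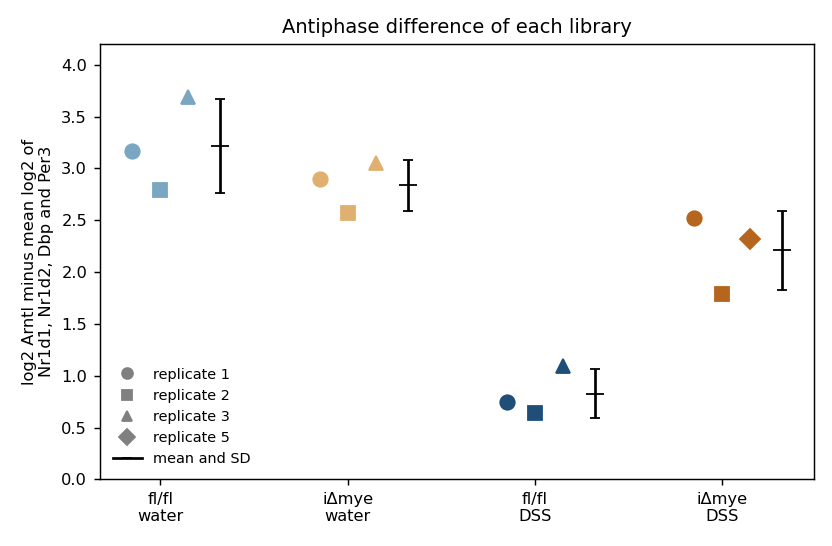
Arntl minus the mean of Nr1d1, Nr1d2, Dbp and Per3 (log2 CPM) in each of the 12 libraries, with points for libraries and a line with a bar for the group mean and its SD. The colitic Tmem173fl/fl libraries lie from 0.64 to 1.09, the colitic Tmem173iΔmye libraries from 1.79 to 2.52 and the 6 untreated libraries from 2.57 to 3.69.

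Of 19 further genes of the clock and its outputs, 18 were tested, and 5 were higher and 5 lower in colitic than in untreated Tmem173fl/fl mice (19.5% and 16.0% of all genes). Npas2, which can replace Clock as partner of Arntl, fell by 1.06 log2 units (SE 0.18, edgeR adjusted p = 0.00149), the same size as Arntl. Rora, a nuclear receptor that activates Arntl at the element that Nr1d1 and Nr1d2 occupy, rose by 1.82 (adjusted p = 4.34e-05). Tef and Hlf, which belong to the same family as Dbp, rose by 1.16 (adjusted p = 0.000169) and 1.56 (adjusted p = 0.00143). Nfil3, a repressor at the same D-box that runs opposite to Dbp in a running clock, rose too, by 2.60 (adjusted p = 2.66e-06). The kinase gene Csnk1e, which acts on Period proteins, rose by 1.04 (adjusted p = 0.000431), and Fbxw11, a ubiquitin ligase subunit, fell by 0.56 (adjusted p = 0.0118). The rhythmic outputs Usp2, Wee1 and Nampt fell by 1.55 (adjusted p = 0.000289), 1.32 (adjusted p = 0.00319) and 1.32 (adjusted p = 0.000953).

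In Tmem173iΔmye mice 2 of the 18 were called with DSS (2.17% of all genes), Nfil3 higher by 1.52 (SE 0.25, edgeR adjusted p = 0.0157) and Wee1 lower (log2 fold change -1.52, SE 0.22, adjusted p = 0.00906). Wee1, which encodes a cell cycle kinase, was thus called as lower in both genotypes. Between colitic mice Nfil3 (-1.06, adjusted p = 0.043) and Rora (-0.97, adjusted p = 0.0311) were lower in Tmem173iΔmye (2 of 18, against 2.15% of all genes). These calls were not checked with other tests or with single libraries left out. Npas2 was at 48.3 ± 13.1 CPM in colitic and 46.8 ± 10.3 CPM in untreated Tmem173iΔmye mice, and at 22.8 ± 4.34 CPM in colitic Tmem173fl/fl mice (SD, n = 3). Its difference between colitic genotypes was 1.08 (SE 0.25, adjusted p = 0.0605). The interaction called 0 of the 18 at this threshold, with 7 at an unadjusted p under 0.05, against 18.1% of all genes.

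**Figure D4:**
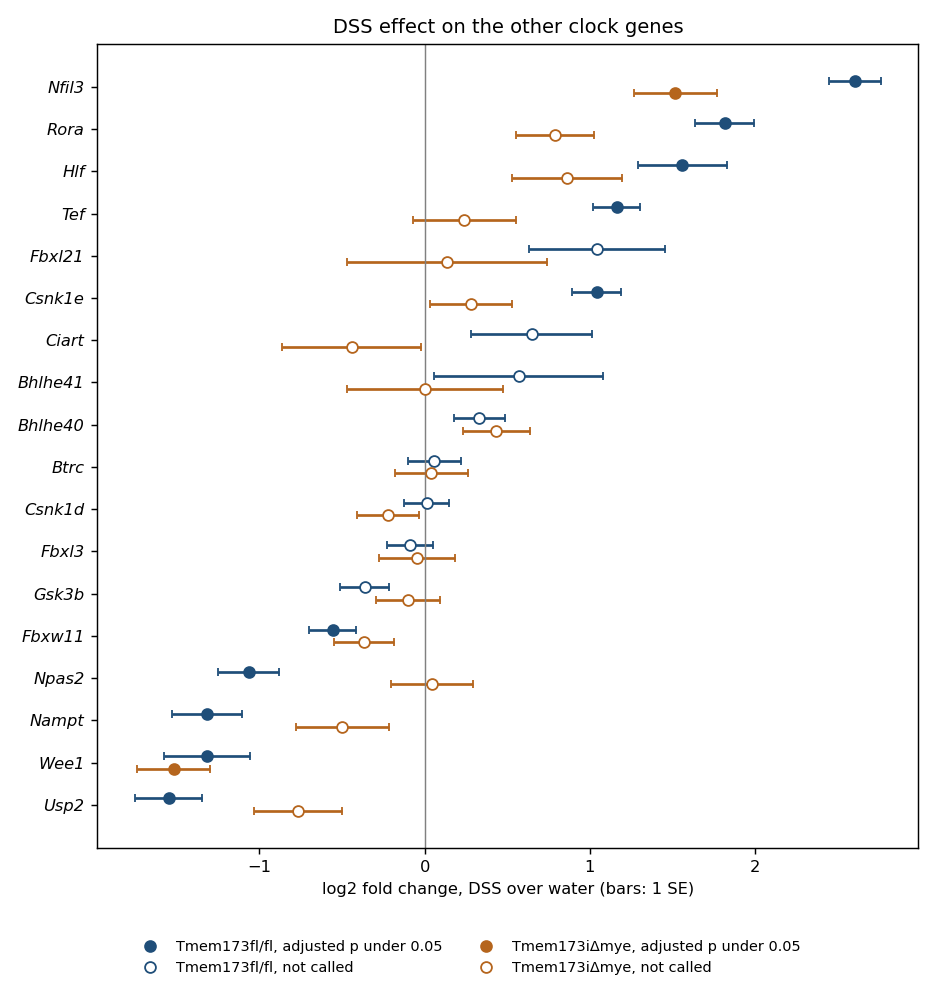
Log2 fold change with DSS of the 18 further clock genes tested, in Tmem173fl/fl and in Tmem173iΔmye mice, with bars of 1 SE from edgeR and filled points for an adjusted p under 0.05. Nfil3 lies highest (2.60 and 1.52), Wee1 is at -1.32 and -1.52, and Npas2 is at -1.06 and 0.04.

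Per1 is also a direct target of the glucocorticoid receptor, and a list of 10 genes that respond to glucocorticoids in many tissues, Per1 among them, was set beside it. In Tmem173fl/fl mice 8 of the 10, Per1 included, were higher with DSS (19.5% of all genes) and 1, Cdkn1a, was lower (16.0%), with a median log2 fold change of 1.71 against 0.03 over all genes. Zbtb16 rose by 4.06, Dusp1 by 3.02, Ddit4 by 2.45 and Fkbp5, a co-chaperone of the receptor, by 1.73, while Tsc22d3 was at 0.54 (adjusted p = 0.0557 in edgeR). In Tmem173iΔmye mice 1 of the 10 was called (2.17% of all genes), Zbtb16 (2.22, adjusted p = 0.0264). Between colitic mice 4 of the 10 were lower in Tmem173iΔmye (2.15% of all genes), namely Ddit4 (-1.87), Dusp1 (-1.71), Zbtb16 (-1.51) and Per1. Of these, only Per1 was checked with other tests and with single libraries left out. The summed level of the list ran from 771.5 to 929.2 CPM in untreated and from 1448 to 2232 CPM in colitic Tmem173fl/fl libraries. In Tmem173iΔmye mice it ran from 868.9 to 1090 CPM untreated and from 841.8 to 1292 CPM with DSS, so these groups overlapped. Glucocorticoid levels are not in the files used here, and the part of these genes' change in that of Per1 was not tested.

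The make-up of the tissue moved with the same comparisons. In Tmem173fl/fl mice all 7 neutrophil markers were higher with DSS (19.5% of all genes). Their summed level was 6.97 to 10.8 CPM in untreated and 391.2 to 576.0 CPM in colitic Tmem173fl/fl libraries. It was 7.58 to 12.5 CPM in untreated and 24.1 to 118.7 CPM in colitic Tmem173iΔmye libraries. All 6 fibroblast markers were higher (19.5% of all genes). Their summed level was 1179 to 1379 CPM in untreated and 7970 to 10150 CPM in colitic Tmem173fl/fl libraries. It was 1142 to 1455 CPM in untreated and 2298 to 3368 CPM in colitic Tmem173iΔmye libraries. Of 7 general epithelial markers, 6 were lower (16.0% of all genes). Their summed level was 11000 to 13830 CPM in untreated and 3994 to 6874 CPM in colitic Tmem173fl/fl libraries. It was 11520 to 13820 CPM in untreated and 8567 to 10300 CPM in colitic Tmem173iΔmye libraries. All 6 macrophage and all 5 endothelial markers were higher too (19.5% of all genes). Of 7 goblet markers 5 were lower, and of 7 colonocyte markers 5 were lower and 2 higher (16.0% of all genes lower). For smooth muscle and for T cell markers the count was 1 of 6 lower, near that share. Of 5 B and plasma cell markers 1 was higher, near the 19.5% of all genes. RNA of another organ varied too. The summed level of 5 exocrine pancreas markers ran from 102.5 to 2604 CPM (median 230.0) in untreated and from 452.5 to 6819 CPM (median 3514) in colitic Tmem173fl/fl libraries, and from 116.9 to 1510 CPM (median 172.3) in untreated and from 103.5 to 7869 CPM (median 221.6) in colitic Tmem173iΔmye libraries, with 0 of the 5 called in any comparison. None of the markers of these kinds was at 0 in a whole group. The part of these shifts in the levels of the clock genes was not tested.

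Within groups, the genes whose deviations from the group mean followed those of Arntl most closely over the 12 libraries were Carmn (Pearson r = 0.979), Rnf149 (0.925), Cops6 (0.92), Tmem29 (0.889) and Ikzf2 (0.87) of 12556 genes. The most opposite were Pogz (-0.869), Zfp324 (-0.867), Nr2f2 (-0.865), Arntl2 (-0.861), a paralog of Arntl, and Ints8 (-0.86). Among clock genes, Arntl deviated with Per1 (r = 0.735) and Npas2 (0.679) and against Hlf (-0.649) and Tef (-0.56). With the opposite members of the value per library it had r = 0.402 (Nr1d1), -0.13 (Nr1d2), -0.341 (Dbp) and -0.409 (Per3). With Per2, which is not in that value, it had r = -0.415. For Dbp the closest were Bbc3 and Snx21 (both 0.95), Impdh1 (0.924), Trim32 (0.905) and Arsa (0.902) of 12557 genes, and the most opposite Sec23b (-0.963), C9orf72 (-0.921), Acap2 (-0.919), Pafah1b2 (-0.918) and Gpm6a (-0.91). These values are a description over libraries that share group means and, for Dbp, low counts. The genes at either end were picked from all those compared, over 12 libraries whose group means had been taken out. Among so many genes, r of this size can arise by chance. A link of these genes to Arntl or Dbp was not tested.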

How the data were processed

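Total RNA of whole colon was sequenced by a service company from libraries made with a NEBNext Ultra RNA kit. The submitters' processing notes name CASAVA 1.8, fastp, HISAT2 2.0.5, featureCounts 1.5.0-p3, DESeq2 1.20.0 and the build GRCm38/mm10, and the strand setting is not given in the sources used here. The authors deposited whole-number counts per gene and library, not normalised. The authors also deposited FPKM, which divides counts by gene length and library depth. Their columns of group means, log2 fold changes and p-values between groups were not used. Counts were scaled by TMM and tested in edgeR 4.0.16 (glmQLFit and glmQLFTest, R 4.3.3) over the 24102 genes that reached an FPKM of 0.1 in 3 libraries or more, with Benjamini-Hochberg adjustment over all of them. A gene was called at an adjusted p under 0.05. Each fit held only the groups compared, and the interaction held all 12 libraries. The SE is the absolute log2 fold change divided by the square root of F. The value for Arntl against its opposite members used log2(CPM + 0.5).

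Sample titles gave the groups and the replicate numbers, and separate mice are taken as replicates. The genes, the lists and the value per library were chosen with earlier results of these data known. Named beside the 10 genes are those of 19 further clock genes that were called (1 more gene of that list is not reported here), and the 5 genes most like and most unlike Arntl and Dbp. Promoters came from RefSeq (GRCm38.p6). The gene coordinates equal those of GENCODE M21 for all 10 genes, from which exon overlaps were taken. The fits were tested on simulated data, and the outcome of that is not given here. Alternatives were other scalings, filters, tests (DESeq2 1.42.0, limma 3.58.1 on log2 FPKM), pseudocounts, a fold minimum, a fit of all libraries, a block for the replicate number, and leaving out libraries 1 at a time. The calls of named genes outside the 10 clock genes were not checked individually in this way. A fit without the libraries of female pattern was added after the data were seen. For DSS in Tmem173fl/fl mice it equals the fit without untreated replicate 3. Between colitic genotypes it equals the fit without colitic Tmem173iΔmye replicate 5.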

Additional observations from a re-analysis of the deposited data

How the results depend on the processing

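With DSS in Tmem173fl/fl mice, Arntl, Cry1, Per1, Nr1d1 and Nr1d2 kept their direction and their call under all 16 alternatives, and the calls of Cry2, Dbp, Per2 and Clock were each lost under at least 1. Over all genes, 5422 were called there with a fold minimum of 1 on the log2 scale. Leaving out single libraries gave 6604 to 8301 called genes and 7 to 8 called members, and Per3 ran from -0.059 to 0.26. Without untreated replicate 3, of female pattern, Cry2 (adjusted p = 0.0718) and Dbp (adjusted p = 0.112) did not pass in edgeR. limma on log2(FPKM + 0.1) lost Per2, Cry2 and Dbp (adjusted p = 0.0593, 0.0804 and 0.0629).

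With DSS in Tmem173iΔmye mice, the count of called genes and members was 1120 and 2 with no filter, 1456 and 3 with DESeq2 and 1333 and 3 in a fit of all 12 libraries, the 3 being Per1, Cry1 and Nr1d1 in both. limma called 41 genes at a pseudocount of 0.1 and 79 at 1. Without the libraries of female pattern 1 member was called and Dbp was at 0.39. Leaving out single libraries gave 51 (without untreated replicate 2) to 1743 genes (without colitic replicate 5) and 0 to 1 members, with Dbp from -0.34 to 0.17 and Per3 from -0.45 to 0.026.

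Between untreated genotypes 87 genes were called with no filter, 6 with DESeq2 and 3 with limma at a pseudocount of 0.1. Leaving out single libraries gave 0 to 6 genes, and 0 members were called in each of these. There Per1 ran from -0.32 to 0.10, Per3 from -0.23 to 0.071, Clock from -0.22 to 0.071, Cry2 from -0.069 to 0.22 and Cry1 from -0.12 to 0.027. Without the libraries of female pattern Clock was at 0.030, Cry2 at -0.18 and Dbp at -0.18.

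Between colitic genotypes 1421 genes were called with no filter, 2379 with DESeq2 and 2285 in a fit of all 12 libraries, each with Cry2 called as well. limma called 71 genes at a pseudocount of 0.1 and 373 at 1, with 0 members in both, and 1 member passed a fold minimum. Leaving out single libraries gave 27 (without colitic Tmem173fl/fl replicate 1) to 2002 genes (without colitic Tmem173iΔmye replicate 1) and 0 to 2 members. Colitic Tmem173iΔmye replicate 5 was the only colitic library of female pattern. Without it neither Arntl (adjusted p = 0.0688) nor Per1 (adjusted p = 0.0505) passed in edgeR.

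For the interaction, 1 member (Arntl) was called with upper quartile scaling and with a CPM of at least 1 in at least 3 libraries. With no filter 1283 genes and 2 members were called, with DESeq2 1658 and 3, with limma at a pseudocount of 0.1 371 genes, and without the libraries of female pattern 201 genes, where Per2 was at -0.033. Leaving out single libraries gave 268 to 1982 genes and 0 to 1 members, with Per2 from -0.12 to 0.57.

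Replicate numbers did not pair the libraries (r of same-numbered libraries from -0.172 to 0.184, and every library matched another number best). A replicate block, which in colitic Tmem173iΔmye comparisons could use numbers 1 and 2 only, gave 1558 genes and 3 members (Per1, Per2 and Nr1d1) for DSS in Tmem173iΔmye mice, where Dbp was at 0.38. It gave 119 genes between untreated and 101 genes and 0 members between colitic genotypes, and 1 member in the interaction, where Per2 was at -0.13.

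The value of Arntl against its opposite members changed with DSS by -2.39 in Tmem173fl/fl mice and by -0.63 in Tmem173iΔmye mice. Leaving out single libraries gave -2.60 to -2.15 for the first and -0.78 to -0.42 for the second. With Nr1d1 alone as the opposite member the 2 changes were -3.76 and -1.66, and with Dbp alone the second was -0.14. The cause of these differences between settings was not tested. Dbp had 17 to 106 counts in a library, which limits the precision of its values.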
